A study of Mus musculus with 7 samples.

Results

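The chemokine family was followed in the extensor digitorum longus of the mouse, a fast-twitch hindlimb muscle, as 52 genes of the 19938 measured. Members were all genes whose array symbol begins with Ccl, Cxcl, Ccr or Cxcr and a digit, together with Cx3cl1, Cx3cr1, Xcl1 and Xcr1. Each gene was read through probe sets that carry its symbol alone, and through the brightest of them where it had several. The set held 19 CC ligands, 13 CXC ligands and the ligands Cx3cl1 and Xcl1, and on the receiving side 10 CC receptors, 6 CXC receptors, Cx3cr1 and Xcr1. Another 7 probe sets carry several symbols at a time, 4 of them for Ccl21 copies and 3 for Ccl27 copies, and are not used here.

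The arrays came from 3 mice labelled AMPKα1α2 double knockout and 4 mice labelled wild type, with 1 single-colour array for each, taken as 1 mouse. AMPK is the AMP-activated protein kinase, an energy sensor whose catalytic subunits are α1 and α2. Both groups shared a mixed background of C57/Bl6 and SV129. The labels do not state the sex or age of the mice, in which tissues the genes were deleted or whether the muscle had worked before sampling. The title of the series concerns muscle fatty acid use in exercise. The comparison asks how chemokine transcripts differ between knockout and wild type muscle.

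Chemokines are small secreted proteins that guide leukocytes along concentration gradients, and they are classed by the spacing of cysteines near their amino end. They act through membrane-spanning receptors that couple to inhibitory G proteins. Some, such as the ligands of Ccr2 and Cxcr2, are induced by injury and inflammation, while others, such as Cxcl12, are made steadily by stromal cells. In injured muscle, Ccr2 and its ligands bring in the monocytes that become macrophages.

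The arrays were comparable in median level. The median of all 28856 probe sets lay between 7.52 and 7.58 in knockout arrays and between 7.50 and 7.54 in wild type arrays, on a log2 scale. Fast fibre markers averaged 13.55 to 13.59 in knockout and 13.50 to 13.55 in wild type muscle, and 0 of the 10 lay below the array median on every array, so markers of the labelled tissue were present. Prkaa1, which encodes α1, read 8.80 to 9.19 in knockout and 9.48 to 9.61 in wild type muscle (limma adjusted p = 0.12). Prkaa2, for α2, read 11.95 to 12.04 in knockout and 12.03 to 12.31 in wild type muscle (limma adjusted p = 0.39). A probe set outside a deleted part does not fall with it, so neither value settles the genotype, which was taken from the labels. Knockout replicate 2 stood apart: its mean over 15 immediate early genes was 10.22, against 8.54 and 8.81 in the other knockout arrays and 8.42 to 8.65 in wild type arrays. The median difference of these genes was 0.45, and 0.09 without that array. Atf3, with the smallest p of the list, was high in the other knockout arrays too. It read 10.12, 12.35 and 10.57 in knockout muscle, against 8.41, 10.02, 8.63 and 8.64 in wild type muscle. Many values are therefore given with and without knockout replicate 2. That array was not the one set lowest by limma's array weights, which are low for arrays that scatter more about their group. Its weight was 1.43, against 0.82 and 0.29 for knockout replicates 1 and 3, and the 0.29 was the lowest of all 7 arrays. Values without knockout replicate 2 are therefore not read as the better estimate.

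The members above the array median throughout were ligands. Of the 52 members, 10 lay above the median of all probe sets on all 7 arrays, or 19.2%, where 51.2% of all genes did. They were the CC ligands Ccl11, Ccl6, Ccl9, Ccl19, Ccl5 and Ccl25 and the CXC ligands Cxcl14, Cxcl12, Cxcl1 and Cxcl17. A further 9 members exceeded it on some arrays, and 33 on none. Of the 18 receptors, 0 exceeded the median on every array, Ccr7 did on 6 arrays and Cx3cr1 on 3, and the other receptors on none. Cx3cl1 and Cxcl13 exceeded it on 6 arrays. The remaining 5, Ccl2, Ccl3, Ccl7, Ccl24 and Cxcl10, crossed it in knockout replicate 2 alone. Against the median of single-symbol probe sets, which is higher, 6 members stayed above on all arrays, namely Ccl11, Cxcl14, Cxcl12, Ccl6, Ccl9 and Ccl19. With the mean of each gene's probe sets in place of the brightest, 9 members lay above the median of all probe sets on every array. Ccl25 had a second, dimmer probe set, which exceeded the array median in knockout replicate 1 alone. Probe sets differ in binding strength, so a place above or below the median is not an order of transcript abundance between genes, and the table gives no detection call.

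**Figure D1:**
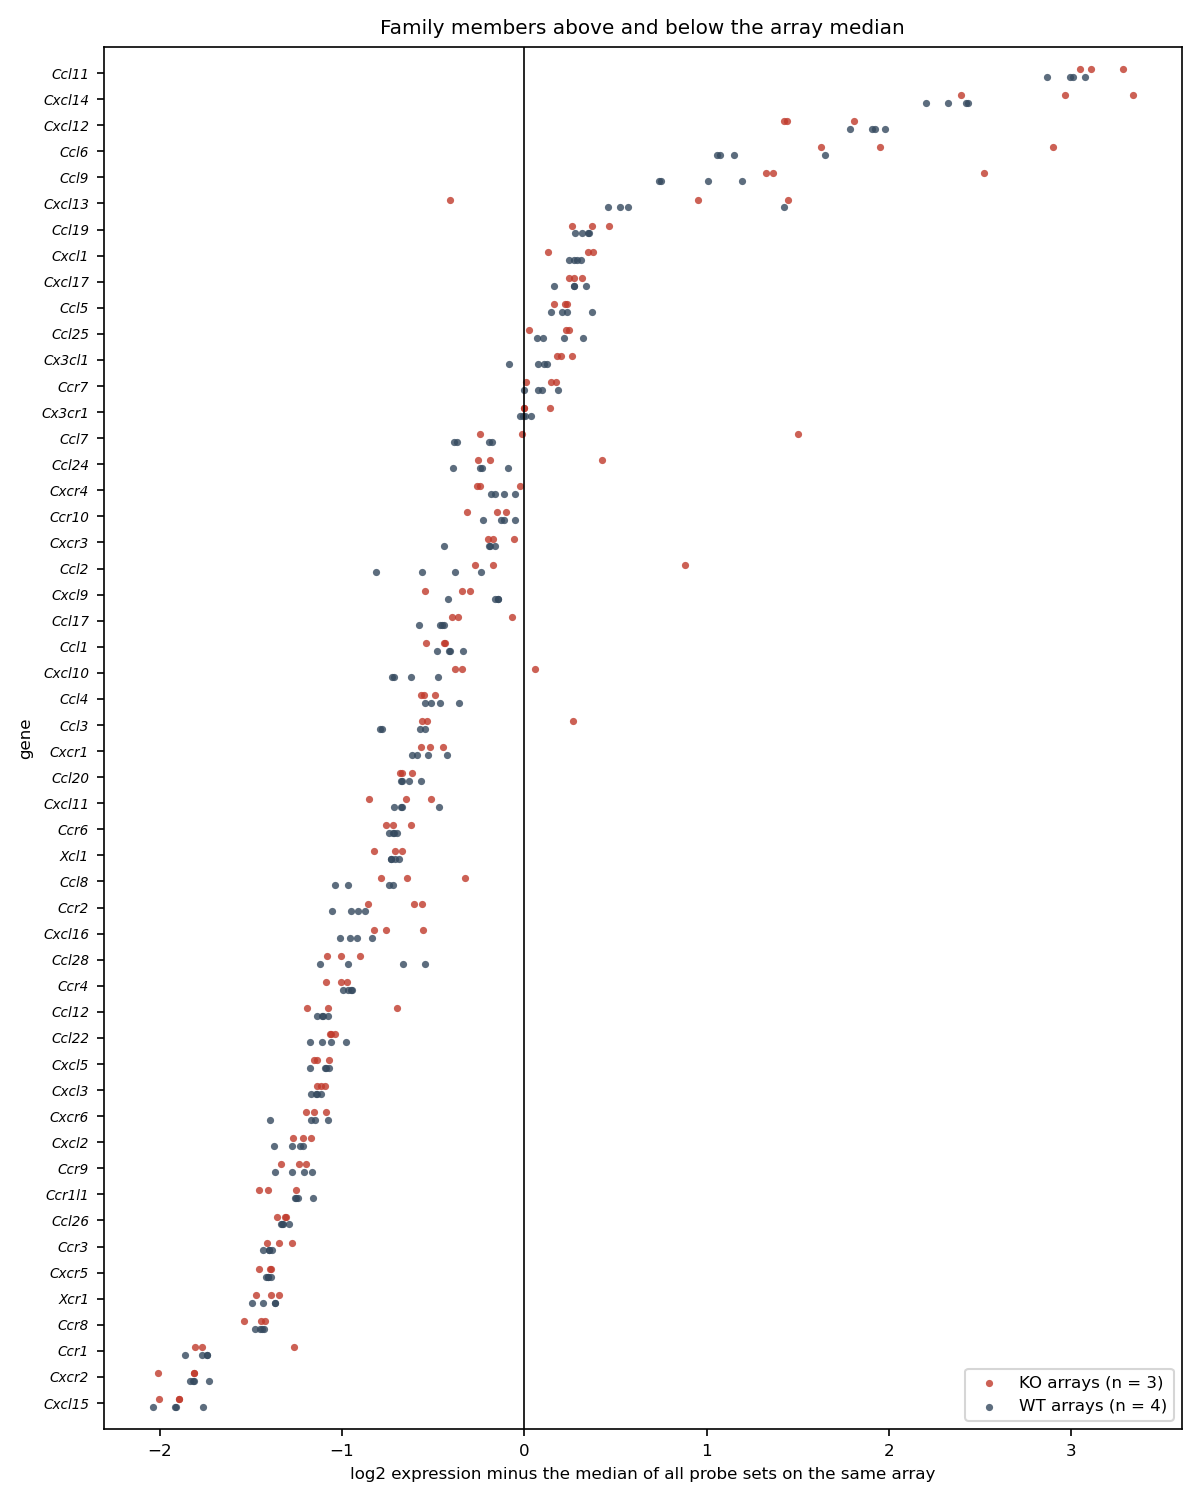
The horizontal axis is log2 expression minus the median of all probe sets on the same array, with 1 row per gene; red points are the 3 knockout arrays and dark points the 4 wild type arrays. The 10 genes with every point to the right of 0 are all ligands, and 33 genes have no point to the right of it.

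By limma, with p-values adjusted after Benjamini and Hochberg over all probe sets of 1 symbol, 0 of the 52 members passed an adjusted p of 0.05, and 0 passed 0.10, where 0.0251% and 0.361% of all genes did. The smallest adjusted p of a member was 0.235. At an unadjusted p under 0.05 there were 8 members higher in knockout muscle, against 3.93% of all genes, and 2 lower, against 6.69%. In percent of the family these were 15.4% and 3.8%. For 11 members every knockout array lay above every wild type array, or 21.2% of the family, against 3.29% of all genes. After each array was centred on its median the count was 6, or 11.5% of the family, against 3.15% of all genes. For 0 members did all knockout arrays lie below, against 5.33% of all genes. The median difference of knockout minus wild type was 0.04 over the members and -0.0049 over all genes, and 67.3% of members were positive against 46.5% of all genes. Single members therefore carry no call, and the values below are descriptions with unadjusted and adjusted p.

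**Figure D2:**
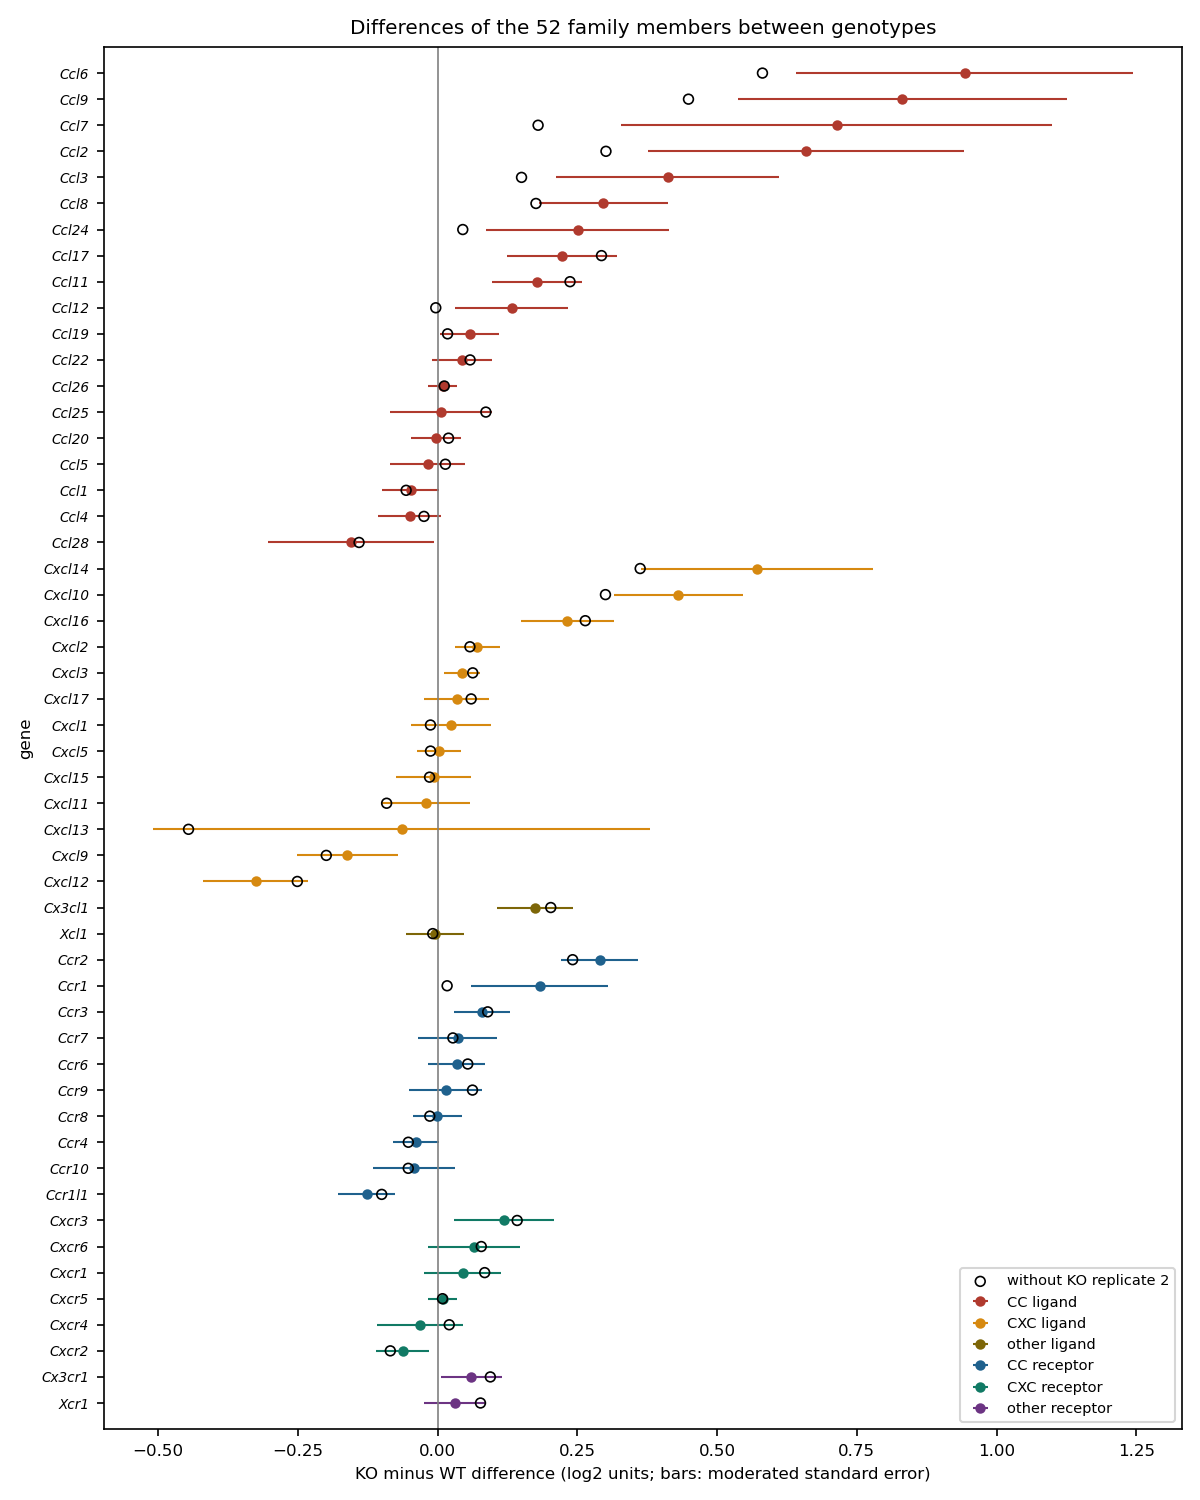
Each row is 1 of the 52 members, grouped by role and ordered by size; filled points are knockout minus wild type differences in log2 units with their moderated standard errors, and open circles the difference without knockout replicate 2. Among the filled points Ccl6 and Ccl9 lie farthest to the right at 0.94 and 0.83, and Cxcl12 farthest to the left at -0.33. Without that array Ccl6 and Ccl9 move to 0.58 and 0.45, and the open circle farthest to the left is Cxcl13 at -0.45.

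Ccr2, the receptor that inflammatory monocytes use to leave the blood, had the smallest p of the family. It read 6.91, 6.96 and 6.73 in knockout muscle, against 6.61, 6.67, 6.55 and 6.48 in wild type muscle. Every knockout array lay above every wild type array, although all 7 values were below the array median. The difference was 0.29 ± 0.07 (SE), or 1.22-fold, with an unadjusted p of 0.0042 and an adjusted p of 0.23 in limma. The unadjusted p stayed under 0.05 in 15 of 15 alternative analyses, with differences between 0.24 and 0.36. The same count held for Ccl6, Cxcl10 and Cxcl12. The remaining members with an unadjusted p under 0.05 kept it less often. Cxcl16 did in 13 of 15 alternatives, Ccl9 in 12, Cxcl14 in 11 and Cx3cl1 in 10. Ccl8 kept it in 8 of 15 and Ccr1l1 in 8 of 14. In RNA of a whole muscle, more cells of a type and more RNA per cell cannot be told apart.

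The ligands of Ccr2 were high in 1 knockout array. Ccl2, the main monocyte attractant, read 7.35, 8.41 and 7.31 in knockout muscle, against 7.28, 6.73, 6.94 and 7.16 in wild type muscle. The groups did not overlap, but replicates 1 and 3 of the knockout lay close above the highest wild type array. The difference was 0.66 ± 0.28 (unadjusted p = 0.052, adjusted p = 0.47), and 0.30 ± 0.15 without knockout replicate 2. Ccl7, a close relative on the same receptor, read 7.51, 9.03 and 7.34 in knockout muscle, against 7.34, 7.18, 7.12 and 7.34 in wild type muscle, a difference of 0.71 ± 0.39 that was 0.18 ± 0.09 without knockout replicate 2. Here the groups overlapped. Ccl12, the third ligand, read 6.44, 6.82 and 6.39 in knockout muscle, against 6.44, 6.44, 6.39 and 6.40 in wild type muscle, so only knockout replicate 2 stood clearly above the wild type range. Its difference was 0.13 ± 0.10, and -0.0031 ± 0.03 without that array.

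Ccl6 and Ccl9, neighbouring genes for ligands that myeloid cells make in the mouse and that act on Ccr1, had the largest differences of the family. Ccl6 read 9.47, 10.42 and 9.21 in knockout muscle, against 8.59, 9.20, 8.65 and 8.60 in wild type muscle. Knockout replicate 2 was highest, wild type replicate 2 nearly reached the lowest knockout value, and the groups did not overlap. The difference was 0.94 ± 0.30, or 1.92-fold (unadjusted p = 0.017, adjusted p = 0.36), and 0.58 ± 0.20 without knockout replicate 2 (unadjusted p = 0.026). It kept an unadjusted p under 0.05 in 15 of 15 alternatives. Ccl9 read 8.88, 10.04 and 8.91 in knockout muscle, against 8.27, 8.74, 8.51 and 8.27 in wild type muscle, again without overlap. Its difference was 0.83 ± 0.29, or 1.78-fold (unadjusted p = 0.026, adjusted p = 0.41), and 0.45 ± 0.14 without knockout replicate 2. Their receptor Ccr1 read 5.75, 6.26 and 5.78 in knockout muscle, against 5.78, 5.78, 5.76 and 5.67 in wild type muscle. Only knockout replicate 2 stood above the rest, and the difference of 0.18 ± 0.12 was 0.02 ± 0.04 without it.

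The 250 bases before the start of both genes are shown because they lie next to each other and were high in the same arrays. They come from RefSeq in build GRCm38.p6, Ccl6 from chr11:83593088-83593337 and Ccl9 from chr11:83578637-83578886, both on the minus strand and written 5′ to 3′. Capitals mark matches to any of 6 motifs: the TATA box (TATAAA, gene strand only) and, on both strands, AP-1 (TGANTCA), C/EBP (TTNCNNAA), the NF-kappaB consensus, the interferon-stimulated response element and the PU.1 core (GAGGAAG).
Ccl6: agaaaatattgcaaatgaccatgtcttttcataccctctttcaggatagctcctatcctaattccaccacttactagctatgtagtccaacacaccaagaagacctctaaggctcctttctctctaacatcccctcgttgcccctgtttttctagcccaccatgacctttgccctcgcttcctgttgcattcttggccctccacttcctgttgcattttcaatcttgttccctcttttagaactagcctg
Ccl9: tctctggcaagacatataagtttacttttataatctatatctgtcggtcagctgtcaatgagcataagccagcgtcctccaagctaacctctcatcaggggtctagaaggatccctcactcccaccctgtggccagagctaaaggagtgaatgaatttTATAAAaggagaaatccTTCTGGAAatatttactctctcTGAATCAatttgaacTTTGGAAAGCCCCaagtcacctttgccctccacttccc
The Ccl6 window held no match to any of them. The Ccl9 window held 1 TATAAA match, 1 AP-1 match, 2 C/EBP matches and 1 NF-kappaB match, the last overlapping a C/EBP match. The TATAAA match began at position -92 from the start, and the AP-1 match has A at the open base of the pattern. Of 32851 windows of this length in the table, 7.59% held the TATA box, 6.75% AP-1, 36.8% C/EBP, 3.9% NF-kappaB, 2.98% the interferon element and 10.6% PU.1. Among the 38 members with a window these were held by 10, 4, 15, 8, 3 and 5. A member with several windows counted when any of them matched, so these counts and the shares of windows are not in the same unit. A match is a run of letters and not a shown site.

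Ccl3, an early macrophage product that also acts on Ccr1, read 6.98, 7.79 and 7.02 in knockout muscle, against 6.97, 6.97, 6.72 and 6.75 in wild type muscle. The groups did not overlap, but the lowest knockout array lay just above the highest wild type arrays. Its difference of 0.41 ± 0.20 (unadjusted p = 0.078) was 0.15 ± 0.09 without knockout replicate 2. Ccl8, which in the mouse acts on Ccr8, read 6.87, 7.20 and 6.80 in knockout muscle, against 6.78, 6.51, 6.78 and 6.57 in wild type muscle. This was a difference of 0.30 ± 0.12 (unadjusted p = 0.037, adjusted p = 0.44) without overlap, or 0.18 ± 0.10 without knockout replicate 2. Ccr8 itself read 5.99, 6.10 and 6.14 in knockout muscle, against 6.04, 6.10, 6.07 and 6.10 in wild type muscle, with overlap and a difference of -0.0005 ± 0.04.

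Cxcl10, an interferon-induced attractant of T cells and natural killer cells, had the second smallest p of the family. It read 7.14, 7.58 and 7.24 in knockout muscle, against 6.79, 6.83, 6.88 and 7.07 in wild type muscle. The groups did not overlap, with wild type replicate 4 nearest to the knockout range. The difference was 0.43 ± 0.11, or 1.35-fold (unadjusted p = 0.0072, adjusted p = 0.27), and 0.30 ± 0.08 without knockout replicate 2. Its unadjusted p was under 0.05 in 15 of 15 alternatives. Cxcl9 and Cxcl11, its neighbours on chromosome 5 and also ligands of Cxcr3, differed by -0.16 ± 0.09 and -0.02 ± 0.08, and by -0.20 and -0.09 without knockout replicate 2. Whether these differ from Cxcl10 was not tested. Cxcr3 read 7.32, 7.35 and 7.53 in knockout muscle, against 7.36, 7.35, 7.06 and 7.35 in wild type muscle, a difference of 0.12 ± 0.09 with overlap.

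Cxcl12, the ligand that holds progenitors and lymphocytes in place through Cxcr4, was lower in knockout muscle and above the array median on every array. It read 9.33, 8.95 and 9.02 in knockout muscle, against 9.50, 9.47, 9.41 and 9.33 in wild type muscle. Knockout replicate 1 and wild type replicate 4 had the same value, and knockout replicates 2 and 3 were lower than every wild type array. The difference was -0.33 ± 0.09, or 1.25-fold lower (unadjusted p = 0.010, adjusted p = 0.31), and -0.25 ± 0.09 without knockout replicate 2. Its unadjusted p was under 0.05 in 15 of 15 alternatives. Cxcr4 read 7.28, 7.26 and 7.56 in knockout muscle, against 7.36, 7.36, 7.45 and 7.43 in wild type muscle. Its difference of -0.03 ± 0.08 became 0.02 without knockout replicate 2 and 0.01 without knockout replicate 1. The atypical receptor Ackr3, which also binds Cxcl12 and clears it, differed by 0.16 ± 0.11, and by 0.08 ± 0.12 without knockout replicate 2.

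The windows before Cxcl10 and Cxcl12 are shown as the pair that lay on opposite sides of wild type. Source, length and capitals are as above, with Cxcl10 at chr5:92348890-92349139 on the minus strand and Cxcl12 at chr6:117168285-117168534 on the plus strand.
Cxcl10: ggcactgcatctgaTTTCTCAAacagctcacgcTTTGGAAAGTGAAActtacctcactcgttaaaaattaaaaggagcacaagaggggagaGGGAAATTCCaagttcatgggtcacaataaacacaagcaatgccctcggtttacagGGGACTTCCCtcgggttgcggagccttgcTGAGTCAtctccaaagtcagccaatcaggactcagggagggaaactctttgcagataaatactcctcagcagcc
Cxcl12: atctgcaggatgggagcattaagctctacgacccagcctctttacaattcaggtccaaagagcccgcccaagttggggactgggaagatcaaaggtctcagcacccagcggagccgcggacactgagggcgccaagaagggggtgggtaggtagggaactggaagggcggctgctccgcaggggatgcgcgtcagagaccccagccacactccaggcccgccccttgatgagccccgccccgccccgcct
The Cxcl10 window held 1 AP-1 match, 2 C/EBP matches, 2 NF-kappaB matches and 1 interferon element, the last overlapping a C/EBP match. No motif of the 6 matched in the Cxcl12 window.

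**Figure D3:**
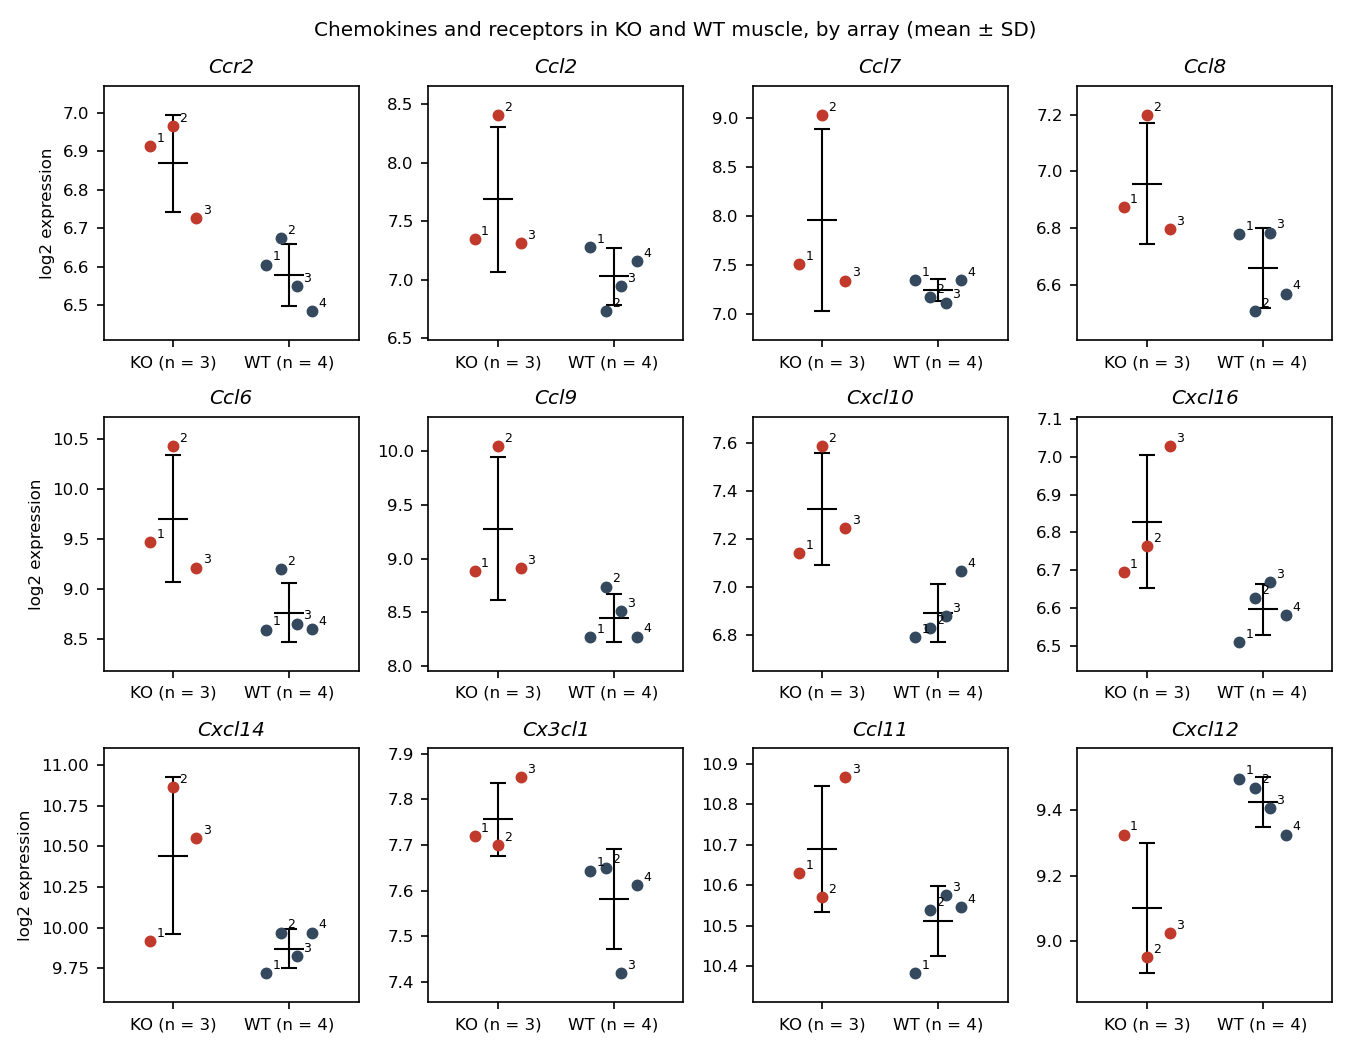
Log2 expression of 12 members on each array, with knockout arrays left and wild type arrays right in each panel, the replicate number beside each point, and the mean with its SD as a bar. The vertical axes differ between panels; knockout replicate 2 is the highest point for Ccr2, Ccl2, Ccl7, Ccl8, Ccl6, Ccl9, Cxcl10 and Cxcl14, and the lowest for Cxcl12.

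Cxcl14, a conserved chemokine made by epithelial and stromal cells, was above the array median on every array. It read 9.92, 10.86 and 10.55 in knockout muscle, against 9.72, 9.97, 9.83 and 9.97 in wild type muscle. Knockout replicates 2 and 3 lay above all wild type arrays and replicate 1 within them. The difference was 0.57 ± 0.21, or 1.49-fold (unadjusted p = 0.028, adjusted p = 0.41), and 0.36 ± 0.18 without knockout replicate 2. Ccl11, the eosinophil attractant eotaxin, was above it on every array too. It read 10.63, 10.57 and 10.87 in knockout muscle, against 10.38, 10.54, 10.58 and 10.55 in wild type muscle. Knockout replicate 2 lay just inside the wild type range. The difference of 0.18 ± 0.08 (unadjusted p = 0.064) was 0.24 ± 0.09 without that array (unadjusted p = 0.033) and 0.09 without knockout replicate 3. Its receptor Ccr3, at 6.11 to 6.31 in knockout and 6.10 to 6.16 in wild type muscle, differed by 0.08 ± 0.05.

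Cxcl16 and Cx3cl1 are made as membrane-bound proteins from which the chemokine part is shed. Cxcl16 read 6.69, 6.76 and 7.03 in knockout muscle, against 6.51, 6.63, 6.67 and 6.58 in wild type muscle. The groups did not overlap, and the difference of 0.23 ± 0.08 (unadjusted p = 0.027, adjusted p = 0.41) was 0.13 without knockout replicate 3. Its receptor Cxcr6 read 6.43, 6.37 and 6.39 in knockout muscle, against 6.37, 6.47, 6.11 and 6.37 in wild type muscle, a difference of 0.07 ± 0.08. Cx3cl1, or fractalkine, read 7.72, 7.70 and 7.85 in knockout muscle, against 7.64, 7.65, 7.42 and 7.61 in wild type muscle. Here too the groups did not overlap, with a difference of 0.17 ± 0.07 (unadjusted p = 0.038, adjusted p = 0.44). Cx3cr1, its receptor on patrolling monocytes and resident macrophages, read 7.52, 7.52 and 7.72 in knockout muscle, against 7.56, 7.52, 7.50 and 7.53 in wild type muscle. Only knockout replicate 3 stood above the wild type arrays, and the difference of 0.06 ± 0.06 was -0.01 without it and 0.09 without knockout replicate 2.

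Ccl17, a ligand of Ccr4, and Cxcl2, a neutrophil attractant on Cxcr2, completed the 11 members without overlap. Ccl17 read 7.16, 7.12 and 7.52 in knockout muscle, against 6.94, 7.08, 7.06 and 7.08 in wild type muscle, a difference of 0.22 ± 0.10 (unadjusted p = 0.059) that was 0.10 without knockout replicate 3. Cxcl2 read 6.31, 6.35 and 6.32 in knockout muscle, against 6.29, 6.27, 6.29 and 6.17 in wild type muscle, a difference of 0.07 ± 0.04 (unadjusted p = 0.12) that was 0.04 without wild type replicate 4. The 6 of these 11 that also had no overlap after centring were Ccl17, Ccl9, Ccr2, Cx3cl1, Cxcl10 and Cxcl16. Knockout replicate 3 had the highest array median, 7.58. Beside Cxcl12, the other member with a lower level and an unadjusted p below 0.05 was Ccr1l1, a receptor-like gene beside Ccr1, which read 6.27, 6.12 and 6.13 in knockout muscle, against 6.27, 6.30, 6.24 and 6.38 in wild type muscle. Its difference was -0.13 ± 0.05 (unadjusted p = 0.042, adjusted p = 0.45), the groups overlapped through knockout replicate 1, and all its values were below the array median.

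The remaining members above the array median on every array were Ccl19, Ccl5, Ccl25, Cxcl17 and Cxcl1, and in each the groups overlapped. Ccl19, a ligand of Ccr7, read 7.78, 7.99 and 7.95 in knockout muscle, against 7.87, 7.86, 7.85 and 7.82 in wild type muscle, a difference of 0.06 ± 0.05, or 0.02 without knockout replicate 2. It had 5 probe sets with its symbol, with differences of 0.04 to 0.06, and near-identical gene copies may share its signal. Ccl5, a T cell product, read 7.74, 7.69 and 7.82 in knockout muscle, against 7.75, 7.92, 7.65 and 7.74 in wild type muscle, a difference of -0.02 ± 0.07. Ccl25, known from thymus and gut, read 7.77, 7.55 and 7.81 in knockout muscle, against 7.62, 7.77, 7.57 and 7.86 in wild type muscle, a difference of 0.01 ± 0.09. A wild type array was highest for Ccl5 and for this probe set of Ccl25. The second Ccl25 probe set read 7.65, 7.48 and 7.19 in knockout muscle, against 7.45, 7.45, 7.45 and 7.37 in wild type muscle. Cxcl17, known from mucosal surfaces, read 7.79, 7.77 and 7.90 in knockout muscle, against 7.79, 7.82, 7.66 and 7.87 in wild type muscle, a difference of 0.03 ± 0.06. The neutrophil attractant Cxcl1 read 7.65, 7.90 and 7.93 in knockout muscle, against 7.76, 7.86, 7.77 and 7.83 in wild type muscle, a difference of 0.02 ± 0.07. For Ccl5, Ccl25, Cxcl17 and Cxcl1 the sign turned when single arrays were left out.

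The other 24 members differed by -0.16 to 0.25, and their smallest unadjusted p was 0.12. Cxcl13, the B cell attractant read by Cxcr5, varied most among them. It read 8.47, 8.97 and 7.18 in knockout muscle, against 7.98, 8.97, 8.03 and 8.11 in wild type muscle. Knockout replicate 3 was the lowest of all arrays, replicates 2 of both groups were the highest, and the difference was -0.06 ± 0.45. It was -0.45 without knockout replicate 2, 0.45 without knockout replicate 3 and 0.17 without wild type replicate 2, so its sign rests on single arrays. Ccl24, a second eotaxin, read 7.33, 7.95 and 7.33 in knockout muscle, against 7.28, 7.31, 7.11 and 7.45 in wild type muscle, a difference of 0.25 ± 0.16 that was 0.05 ± 0.09 without knockout replicate 2. Ccl28, a mucosal ligand of Ccr10, differed by -0.15 ± 0.15, and by -0.06 without wild type replicate 4. The neutrophil set of Cxcl3, Cxcl5, Cxcl15, Cxcr1 and Cxcr2 differed by -0.06 to 0.05. Among the remaining ligands, Ccl1, Ccl4, Ccl20, Ccl22, Ccl26, Xcl1, Cxcl9 and Cxcl11 differed by -0.16 to 0.04. The remaining receptors Ccr4, Ccr6, Ccr7, Ccr9, Ccr10, Cxcr5 and Xcr1 differed by -0.04 to 0.04. To 4 decimals, 13 of the 52 members, or 25%, read the same on 3 or more arrays, as 33.6% of all genes did. Cxcr5 read 6.13 on 6 arrays and Ccl26 read 6.21 on 5, so differences between arrays of such probe sets are not resolved by the deposited values.

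Knockout replicate 2 stood apart in many members. It was more than 0.3 above every other array for 11 members, or 21.2% of the family, where 1.67% of all genes did so. They were Ccl2, Ccl3, Ccl6, Ccl7, Ccl8, Ccl9, Ccl12, Ccl24, Cxcl10, Cxcl14 and Ccr1. For 1 member, Ccl17, knockout replicate 3 led by as much, and for 0 members did any of the other 5 arrays. The limit of 0.3 was chosen after the values were seen. Without knockout replicate 2, 8 members lay higher and 1 lower with an unadjusted p below 0.05, where 3.3% and 4.14% of all genes were. The 8 were Ccl6, Ccl9, Ccl11, Ccl17, Ccr2, Cx3cl1, Cxcl10 and Cxcl16, and the lower one was Cxcl12. In that analysis 13 members had all knockout arrays above all wild type arrays and 0 had them below, against 5.84% and 7.55% of all genes, and 0 members passed an adjusted p of 0.05 in limma.

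**Figure D4:**
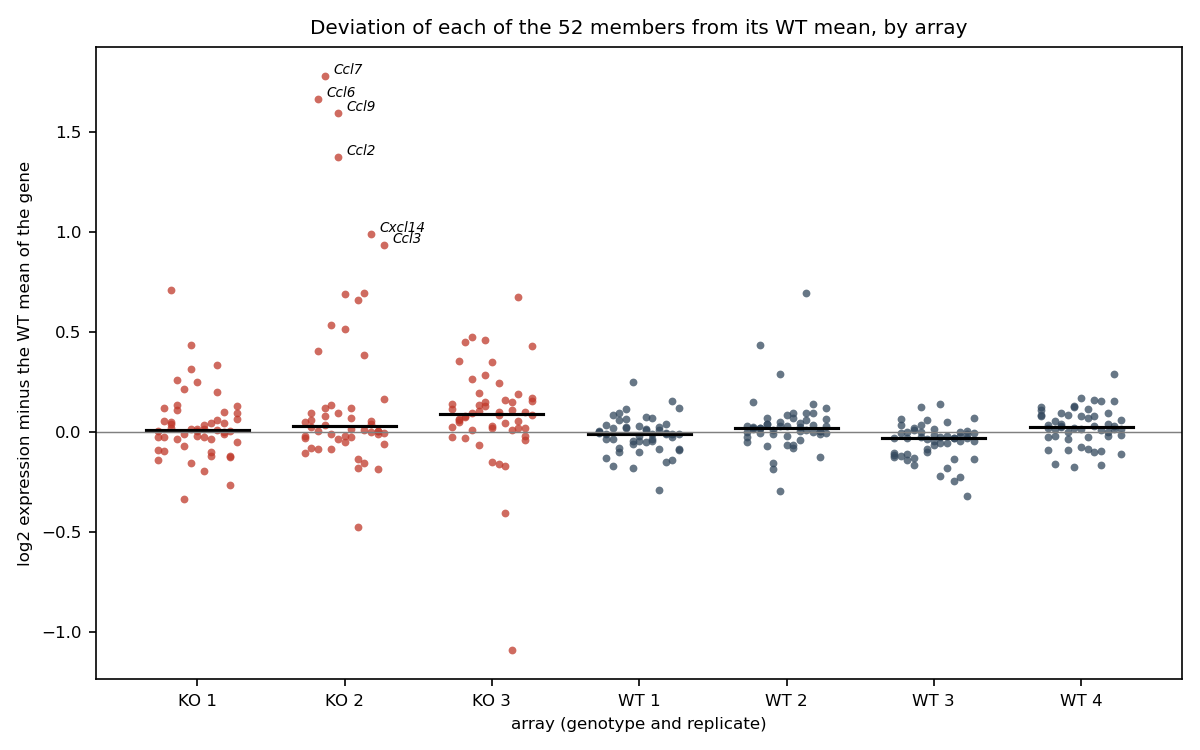
Each point is 1 of the 52 members on 1 array, as log2 expression minus its mean over the 4 wild type arrays, with knockout arrays left and the median of each array as a black line. The 6 labelled points in knockout replicate 2 include Ccl7, Ccl6, Ccl9 and Ccl2, and the lowest point of the plot is Cxcl13 in knockout replicate 3.

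Many members lie in gene groups. In the RefSeq gene order of GRCm38.p6, with groups broken at gaps over 1 Mb, chromosome 11 held 14 members. Its group of Ccl2, Ccl7, Ccl11, Ccl12, Ccl8 and Ccl1 had a median difference of 0.24, and its group of Ccl5, Ccl9, Ccl6, Ccl3 and Ccl4 a median of 0.41. Without knockout replicate 2 these medians were 0.18 and 0.15. Each group also held members near 0 or below, with Ccl1 at -0.05 beside Ccl7 at 0.71, and Ccl4 at -0.05 beside Ccl6 at 0.94. The group of Cxcl5, Cxcl3, Cxcl15, Cxcl1 and Cxcl2 on chromosome 5 ran from -0.01 to 0.07, with a median of 0.02, or -0.01 without knockout replicate 2. On chromosome 8, Ccl22, Cx3cl1 and Ccl17 had a median of 0.17, and the 7 receptors Ccr9, Cxcr6, Xcr1, Ccr1, Ccr1l1, Ccr3 and Ccr2 on chromosome 9 had a median of 0.07. These are descriptions of neighbours and were not tested.

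Marker genes of other cells differed between the same arrays, and are set against the 3.93% of all genes that were higher and the 6.69% that were lower by the same unadjusted p. Of 14 measured macrophage and monocyte markers, 8 were higher and 0 lower in knockout muscle at an unadjusted p under 0.05, and 1, Lyz2, rose at an adjusted p of 0.0088. Their mean level was 8.67 to 8.80 in knockout and 8.15 to 8.34 in wild type muscle, and 1 of the 14 lay below the array median on every array. Of 9 dendritic cell markers, several of which macrophages also express, 6 were higher and 0 lower, with means of 8.20 to 8.47 and 7.84 to 7.92 for knockout and wild type muscle. Of 10 endothelial markers, 7 were lower and 0 higher by the same measure, with means of 9.14 to 9.23 in knockout and 9.43 to 9.61 in wild type muscle. All 9 neutrophil markers, all 6 natural killer cell markers and 7 of 8 T cell markers lay below the array median on every array. By the same measure 1 neutrophil marker, Csf3r, was higher, and 0 markers of natural killer cells or T cells differed. Of 7 pericyte and smooth muscle markers, 3 were lower and 1 higher, and of 6 mast cell markers 1, Cpa3, was higher and 0 lower. In fibro-adipogenic progenitors, stromal cells of muscle that make many chemokines, 2 of 7 markers were higher, with means of 10.56 to 10.89 in knockout and 10.42 to 10.70 in wild type muscle. Of 7 slow fibre markers, 5 were higher, with means of 8.52 to 9.22 in knockout and 8.31 to 8.50 in wild type muscle. Of 6 adipocyte markers, 3 were lower, with means of 8.05 to 8.19 in knockout and 8.20 to 8.48 in wild type muscle. Without knockout replicate 2 the counts were the same for the macrophage, dendritic and progenitor lists, 8 lower for the endothelial, 6 higher for the slow fibre and 2 lower for the adipocyte list. The part of these cell types in the differences of Ccr2, Ccl6, Ccl9, Cxcl12 and the other members was not tested.

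Genes that work with chemokines were read from lists of 5 kinds, and 0 members of them passed an adjusted p of 0.05 in limma. Their counts at an unadjusted p stand beside the same 3.93% and 6.69% of all genes, and counts of 1 or 2 genes are not read as a result. Of 7 atypical and related receptors, 1 had a higher level with an unadjusted p below 0.05 and 0 a lower one. It was Cmklr1, the chemerin receptor of macrophages, at 8.93, 9.49 and 9.27 in knockout muscle, against 8.57, 8.79, 8.87 and 8.69 in wild type muscle, a difference of 0.50 ± 0.14. Ackr4 and Ccrl2 differed by -0.08 ± 0.04 and -0.29 ± 0.19. Of 31 genes of G protein signalling below the receptors, 3 were higher and 0 lower. These were Dock2, an activator of Rac in migrating leukocytes, at 0.28 ± 0.07, the exchange factor Vav1 at 0.14 ± 0.04 and the leukocyte GTPase Rac2 at 0.14 ± 0.05.

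Of 26 cytokines and regulators that induce chemokines, 2 were higher and 0 lower by that measure. Tlr4, the endotoxin receptor, differed by 0.59 ± 0.14 and Nfkb2, of the noncanonical NF-kappaB pathway, by 0.28 ± 0.06, while Il1b differed by -0.13 ± 0.06. Of 15 genes that trim chemokines or hold them at surfaces, 3 were higher and 1 lower by that measure. Mmp12, the macrophage elastase, differed by 0.89 ± 0.13, the heparan sulfate carrier Sdc2 by 0.80 ± 0.12 and the gelatinase Mmp2 by 0.58 ± 0.19. Of 14 leukocyte adhesion genes, 4 were higher and 5 lower. The leukocyte integrin chains Itgam and Itgb2 differed by 0.37 ± 0.06 and 0.46 ± 0.08, and the endothelial junction gene Jam2 by -0.30 ± 0.05. Median differences were 0.10, 0.05, 0.04, 0.06 and 0.08 for these lists in the order given, beside -0.0049 over all genes. Without knockout replicate 2 those medians were -0.0046, 0.05, 0.03, 0.0033 and 0.08. The adhesion genes then had 2 lower in place of 5, the trimming and holding genes 0 lower in place of 1, and the signalling genes 4 higher in place of 3. Ackr1, an atypical receptor of the first list, then differed by -0.0046 in place of 0.33.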

How the data were processed

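Muscle RNA was extracted with TRIzol and labelled with biotin through an Ambion kit, per the labels' protocols. The deposited value table holds 28856 probe sets on 7 arrays, and its values, from 4.41 to 14.65, were read as log2 because they exceed 11.09, the natural log of a 16-bit scanner's limit. The log base is inferred from the deposited values. How the authors corrected background, scaled arrays and summarized probes was not given in the sources used here, nor was a build. Scaling by the authors would remove shifts shared by all genes, and dim probe sets can be compressed.

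Symbols came from GEO's platform annotation. Of the probe sets, 21789 had 1 symbol and were tested, 1621 had several and 5446 were unnamed. All 52 members matched the RefSeq gene table of GRCm38.p6, and 0 needed a new symbol. Knockout minus wild type was fitted with limma 3.58.1 in R 4.3.3 on all tested probe sets and adjusted by Benjamini-Hochberg, with 0.05 as the threshold. ± marks the moderated standard error. Values per array were given for members with an unadjusted p under 0.05, above the array median on all arrays, or without overlap, and for their partners in a list of ligand and receptor pairs, 28 in all. Cxcl13 and Ccl24 were added after their values were seen, as were the analyses of gene groups and lists without knockout replicate 2. Members and lists were chosen with earlier results of these data known. The fit was tested on simulated data. Each array was taken as 1 mouse, so the number of arrays limits precision. Same-numbered arrays were not paired. Alternatives were another scaling, a dim filter, array weights, another prior, other probe set rules, a replicate block and leaving out each array. For a member with 1 probe set, the dim filter, the other prior and the other probe set rules leave the difference unchanged. They alter only its p, so counts over the alternatives are not counts of independent checks. Unused columns numbered 0.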

Additional observations from a re-analysis of the deposited data

Results flagged for a closer look

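Among the 52 members, 11 had a wild type array far from the other 3, with a gap to the nearest of them that passed Dixon's critical value for 4 samples. Chance flags about 1 in 20 groups of 4 where values are normally distributed. The share flagged over all genes was not computed, so the 11 are not read as a trait of the family. Wild type replicate 2 was high for Ccl6 (9.20, others 8.59 to 8.65) and Cxcl13 (8.97, others 7.98 to 8.11). Without that array the Ccl6 difference was 1.09. Wild type replicate 1 was low for Ccl17 (6.94, others 7.06 to 7.08) and Ccl26 (6.20, others 6.21). Wild type replicate 3 was low for Cx3cl1 (7.42, others 7.61 to 7.65), Cxcr3 (7.06, others 7.35 to 7.36) and Cxcr5 (6.10, others 6.13). Wild type replicate 4 was low for Ccr1 (5.67, others 5.76 to 5.78) and Cxcl2 (6.17, others 6.27 to 6.29), and high for Ccr4 (6.59, others 6.55) and Ccr6 (6.82, others 6.80). For Ccl26, Ccr4 and Cxcr5 the other 3 arrays held 1 value, and the whole range was under 0.05.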

How the results depend on the processing

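The number of members at an adjusted p under 0.05 was 0 in limma and in every alternative tried, while 10 had an unadjusted p under 0.05. An adjusted p under 0.10 was reached in some alternatives. In limma it was 0.098 for Ccr2 with array weights, and 0.074 for both Cxcl12 and Cxcl14 without knockout replicate 1. The share of all genes under 0.10 in these alternatives is not given here. Of 414 alternative values of the named members, 391 kept their direction and 23, in 9 members, turned sign. None passed the adjusted threshold of 0.05, so these counts describe direction only. They do not measure how often the unadjusted p was kept, and several alternatives leave the difference unchanged. The count at an unadjusted p under 0.05 lay between 5 and 14 when 1 array was left out, with the 14 when knockout replicate 1 was dropped, the 5 for wild type replicate 4 and 6 for wild type replicate 1. Of all genes 7.44% to 13.5% passed that p in the same analyses, and 10.6% with all arrays. With array weights 14 members passed it, against 13.6% of all genes. The count without overlap was 6 after median centring and 9 after quantile normalization. Of the 9, 8 were higher and 1, Cxcl12, was lower in knockout muscle. With 1 array left out the count ran from 11 to 18, the 18, 16 higher and 2 lower, without knockout replicate 1. Of all genes 10.5% had no overlap in either direction after centring and 12% after quantile normalization. The share was 10.7% to 20.4% with 1 array left out (20.4% without knockout replicate 1) and 8.61% with all arrays. Members above the median on all arrays numbered 6 against the median of single-symbol probe sets, and 9 with the mean of each gene's probe sets. Same-numbered arrays were not shown to be paired, with correlations of 0.30, 0.15 and -0.20. With the replicate number as a block, 0 members passed and 8 had an unadjusted p under 0.05, against 8.29% of all genes.

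Ccl25 was -0.0078 after quantile normalization, -0.0106 after centring and -0.0656 with array weights, and Cxcl17 -0.0067 with array weights. Ccr8 was 0.0061 with the replicate block. With 1 array left out, Ccl12 ran from -0.0031 to 0.2138, Ccl25 from -0.0455 to 0.0865, Ccl5 from -0.0565 to 0.0329, Ccr8 from -0.033 to 0.0453 and Cx3cr1 from -0.0071 to 0.0945. Likewise Cxcl1 ran from -0.029 to 0.1126, Cxcl17 from -0.0071 to 0.0633, Cxcr4 from -0.1286 to 0.021 and Cxcr6 from -0.0082 to 0.1126. The cause was not tested. Signal over background is unknown, so the precision of dim members is not known.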

Other observations

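Knockout replicate 3 was the highest array for 18 members and knockout replicate 2 for 15, against 1 for knockout replicate 1. The median deviation of the members from their wild type means was 0.01, 0.03 and 0.09 in knockout replicates 1, 2 and 3. Among wild type arrays, replicate 4 was highest for 10 members and replicates 1, 2 and 3 for 2, 5 and 1.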
